A study of Mus musculus with 8 samples.

Results

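Most open chromatin in a cell lies away from gene starts, and a large share of it lies inside genes. Here the accessible regions inside genes and away from their starts are described in mouse spermatogonia, before and after retinoic acid (RA). These intragenic regions were chosen by position alone. Peaks sharing 1 bp or more were joined across the 8 libraries into regions, and a region was kept when none of its peaks held a CpG island, none lay within 1000 bp of a gene start and at least 1 was placed inside a gene by the deposited annotation. The rule kept 27970 of 87144 regions, or 32.1%. The other regions were 27037 intergenic regions, 11706 gene starts with a CpG island, 11476 regions in the flanks of genes, 4881 gene starts without a CpG island and 4074 CpG islands away from gene starts.

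The germ cells came from testes of PIWIL2-eGFP mice, in which the Piwil2 promoter drives eGFP in germ cells from before birth to early spermatids, and were sorted for eGFP. All mice, controls included, carried this transgene and were fed WIN 18,446, a compound that blocks RA synthesis, at 100 mg/kg for 7 days from 2 dpp. The 0 h mice received no RA, and the other mice were collected 18, 48 or 120 h after 200 µg RA injected at 9 dpp. Each timepoint had 2 libraries, each from the testes of 1 mouse. The study takes 0 h as A undiff, 18 h as A1/A2, 48 h as A3 and 120 h as B spermatogonia. The labels give C57BL/6 x 129s4/SvJae as the background and 100000 cells per replicate, whereas the methods name C57BL/6 x SJL and 50000 cells.

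In ATAC-seq a transposase cuts and tags DNA where nucleosomes leave it free. Accessible sites inside introns are often enhancers, short elements that bind transcription factors and can act on their host gene or on another gene at a distance. Others are insulator sites bound by CTCF, starts of transcripts that are not annotated, or repeats. In the male germ line, RA starts the change from undifferentiated to differentiating spermatogonia. DMRT1, a DM domain factor that binds DNA through the minor groove, is needed in these cells for the ordered passage from mitosis to meiosis, and RA receptors, SOX factors and FOX factors also act there.

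Accessible windows that head the results below are printed first, so that their values can be set beside their letters. Each is 300 bases centred on the summit, from the plus strand of GRCm38 (mm10), 5′ to 3′. Capitals mark letters of the motifs searched that have fewer than 10 letters, on either strand. The first set holds the first region of each rule by which regions are named: the highest summit (Peg3), the largest rise and fall at 120 h (Camta1, Lphn2), the largest rise at 18 h and, for the falls at 18 h, the third (Epb4.1l3, Dgki), and the highest region open at 0 h only (Zfpm1) and at 120 h only (Abcf1).
Peg3 (chr7:6728523-6728822): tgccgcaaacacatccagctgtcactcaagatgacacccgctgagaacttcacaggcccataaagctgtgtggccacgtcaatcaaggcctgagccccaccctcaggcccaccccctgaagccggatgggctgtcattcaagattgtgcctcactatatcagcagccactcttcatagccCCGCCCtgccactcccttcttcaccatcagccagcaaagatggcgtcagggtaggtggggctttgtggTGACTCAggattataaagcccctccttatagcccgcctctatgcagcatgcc
Camta1 (chr4:151445451-151445750): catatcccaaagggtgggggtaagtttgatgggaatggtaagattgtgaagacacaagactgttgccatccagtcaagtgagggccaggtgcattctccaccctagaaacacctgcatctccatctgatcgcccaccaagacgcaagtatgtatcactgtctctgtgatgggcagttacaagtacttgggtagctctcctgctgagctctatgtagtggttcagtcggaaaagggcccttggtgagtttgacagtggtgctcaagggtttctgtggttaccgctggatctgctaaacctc
Lphn2 (chr3:148850539-148850838): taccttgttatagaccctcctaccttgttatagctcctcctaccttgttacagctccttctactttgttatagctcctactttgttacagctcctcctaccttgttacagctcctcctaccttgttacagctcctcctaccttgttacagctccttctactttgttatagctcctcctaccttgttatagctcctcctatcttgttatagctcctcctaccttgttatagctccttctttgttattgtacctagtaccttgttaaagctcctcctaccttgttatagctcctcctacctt
Epb4.1l3 (chr17:69282075-69282374): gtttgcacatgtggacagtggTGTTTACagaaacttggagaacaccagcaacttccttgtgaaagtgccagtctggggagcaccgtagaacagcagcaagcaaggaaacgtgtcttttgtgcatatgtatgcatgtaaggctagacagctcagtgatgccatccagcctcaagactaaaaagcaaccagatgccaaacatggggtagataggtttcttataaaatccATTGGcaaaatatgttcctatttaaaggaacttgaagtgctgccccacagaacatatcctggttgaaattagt
Dgki (chr6:37097163-37097462): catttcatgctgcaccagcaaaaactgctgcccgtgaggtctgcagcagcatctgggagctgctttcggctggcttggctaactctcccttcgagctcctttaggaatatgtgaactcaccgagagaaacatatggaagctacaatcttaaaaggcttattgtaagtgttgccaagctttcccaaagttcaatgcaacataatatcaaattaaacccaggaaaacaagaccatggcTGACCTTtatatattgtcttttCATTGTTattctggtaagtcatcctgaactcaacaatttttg
Zfpm1 (chr8:122294203-122294502): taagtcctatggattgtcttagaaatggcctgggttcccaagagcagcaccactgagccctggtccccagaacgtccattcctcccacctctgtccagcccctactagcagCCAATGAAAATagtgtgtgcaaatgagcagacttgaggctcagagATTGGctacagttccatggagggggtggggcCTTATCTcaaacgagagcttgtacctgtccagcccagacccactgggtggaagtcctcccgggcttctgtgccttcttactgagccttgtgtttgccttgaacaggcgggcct
Abcf1 (chr17:35967467-35967766): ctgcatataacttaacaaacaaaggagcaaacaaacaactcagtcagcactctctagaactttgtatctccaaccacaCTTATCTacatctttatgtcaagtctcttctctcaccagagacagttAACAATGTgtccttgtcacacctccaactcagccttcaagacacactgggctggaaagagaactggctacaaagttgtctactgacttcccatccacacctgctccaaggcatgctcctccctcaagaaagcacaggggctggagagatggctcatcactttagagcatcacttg

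The capitals are an AP-1 match and an SP/KLF match in Peg3, a FOX match and a CCAAT box in Epb4.1l3, a SOX match and an NR5A match in Dgki, and GATA, octamer and CCAAT letters in Zfpm1. In Abcf1 they are a GATA match and the run of 8 letters in which SOX and DMRT letters overlap. The Camta1 and Lphn2 windows held none of the motifs of fewer than 10 letters. The Lphn2 window is a tandem repeat, in which 84.6% of the bases equal the base 20 positions further on.

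The second set shows windows with the DMRT letters ACANTGT, which were singled out after the values were seen. They are the first region with these letters among the highest regions (Nxn), the largest rises at 120 h (Mxi1) and the regions open at 0 h only (Fbln1).
Nxn (chr11:76377995-76378294): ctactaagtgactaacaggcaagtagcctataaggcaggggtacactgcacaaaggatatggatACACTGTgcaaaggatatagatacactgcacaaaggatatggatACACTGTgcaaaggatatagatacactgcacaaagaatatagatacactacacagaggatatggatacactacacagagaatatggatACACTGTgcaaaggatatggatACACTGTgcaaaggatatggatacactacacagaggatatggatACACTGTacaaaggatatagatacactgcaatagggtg
Mxi1 (chr19:53338891-53339190): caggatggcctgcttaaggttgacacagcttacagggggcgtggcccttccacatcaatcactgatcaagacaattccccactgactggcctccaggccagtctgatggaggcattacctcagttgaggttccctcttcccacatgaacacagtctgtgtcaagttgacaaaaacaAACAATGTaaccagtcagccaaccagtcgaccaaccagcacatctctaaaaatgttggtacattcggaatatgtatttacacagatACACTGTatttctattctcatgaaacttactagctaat
Fbln1 (chr15:85209579-85209878): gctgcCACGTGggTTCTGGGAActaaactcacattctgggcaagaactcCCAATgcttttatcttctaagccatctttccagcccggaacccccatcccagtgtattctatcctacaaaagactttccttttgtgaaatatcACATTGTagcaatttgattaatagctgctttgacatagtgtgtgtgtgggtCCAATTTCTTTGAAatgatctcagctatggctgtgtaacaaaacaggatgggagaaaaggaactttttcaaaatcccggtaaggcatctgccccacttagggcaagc

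Nxn holds 5 DMRT matches in a repeat with a period of 22 bases, and 78.1% of its bases equal the base 1 period on. Mxi1 holds 2 DMRT matches, of which 1 overlaps SOX letters. Fbln1 holds 1 DMRT match beside CCAAT, E-box and STAT letters.

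Intragenic regions were small and far from starts. Their median width was 384 bp, from 200 to 2425 bp, and the median distance to the start of the gene was 34344.5 bp. The summit of 85.3% lay in an intron of the GENCODE vM21 basic annotation, while 8.05% lay in a coding exon, 3.41% in a UTR and 1.89% in an exon of a noncoding transcript. Only 374 regions were placed in more than 1 gene. The median GC content of the windows was 49.7%, against 51.7% over all regions and 66% at gene starts with a CpG island, and the median window held 4 CpG dinucleotides.

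The regions fell into 9973 genes, of which 4385 held 1 and 418 held 10 or more. The gene with the most was Camta1, which encodes a calmodulin-binding transcription activator, with 55 regions over 802246 bp. Mtus2, a microtubule-associated gene, held 50, Ctnna3, an alpha-catenin gene, held 46, Cdh13, the T-cadherin gene, held 41, and St6galnac3, a sialyltransferase gene, held 38. Among genes with at least 10 regions the densest was Myh14, a nonmuscle myosin heavy chain gene, with 14 regions or 21.5 per 100 kb. Gng7 (19.6 per 100 kb), Ssh1 (19.4), B3galtl (18.9) and Cldn10 (17.3) followed. No gene was in both lists.

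Regions were open in far more places at 0 h than after RA. Libraries had 21257 and 19946 intragenic peaks at 0 h, 6838 and 8272 (18 h), 5401 and 8285 (48 h), and 10825 and 5184 (120 h). Both 0 h libraries lay above all 6 later ones, and the 2 libraries at 120 h differed from each other more than those of any other timepoint. The mean was 20601.5 ± 927 (SD, n = 2) at 0 h and 7467.5 ± 2119.88 (SD, n = 6) later, a ratio of 2.76, with an exact permutation p of 0.0714 (two-sided, the smaller tail doubled), the smallest that 2 against 6 libraries can give. Over peaks of every kind the ratio was 2.26. In such bulk samples, fewer cells with an open site and a weaker signal per cell cannot be told apart.

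The intragenic share of all peaks followed the same order. It was 29.4% and 28.9% (0 h), 23.7% and 24.0% (18 h), 20.8% and 24.4% (48 h), and 27.4% and 21.0% (120 h). The 0 h libraries again lay above all later ones, by 5.60 percentage points on average (exact permutation p = 0.0714, two-sided, n = 2 and 6). Among strong peaks the difference depended on how these were chosen. With the 24643 highest peaks of each library, the number in the smallest one, the share was 22.3% at 0 h and 21.6% later. With all peaks that had summit values of at least 50 it was 27.3% at 0 h and 20.3% later.

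**Figure D1:**
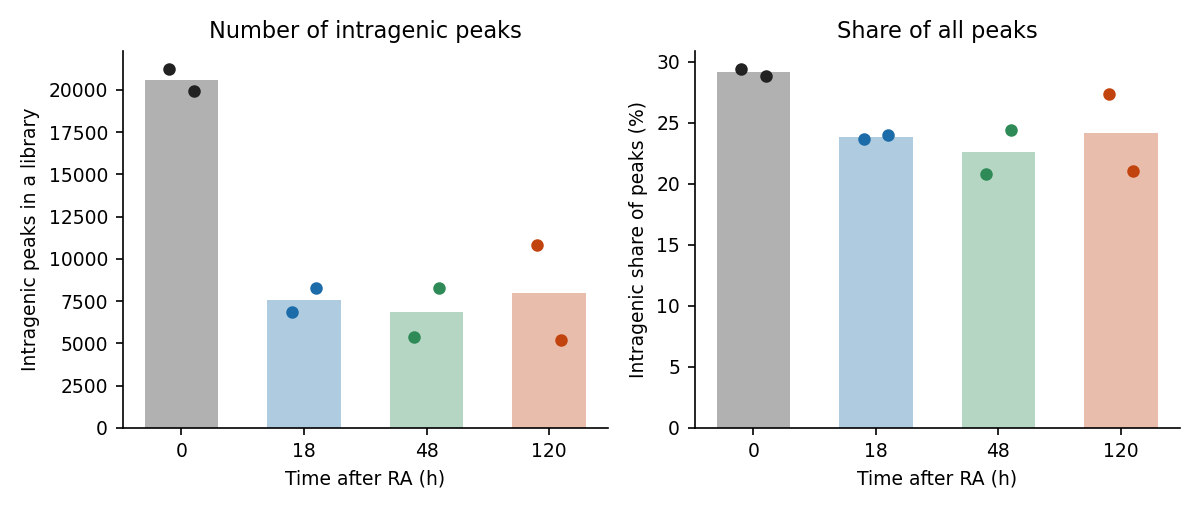
Number of intragenic peaks (left) and their share of all peaks of the library in percent (right) by time after RA in h. Points are the 8 libraries and bars the means of 2 libraries: the 0 h points sit highest in both panels, at 21257 and 19946 peaks and at 29.4% and 28.9%, and the 2 libraries at 120 h lie far apart.

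Start peaks of marker genes, both of germ cells and of other testis cells, were also higher at 0 h than later. Which cells gave these peaks was not tested. Summed over the start peaks of 15 Sertoli cell markers, of which 11 had a peak (Gata1, Fshr, Rhox5 and Nr5a1 had none), the summit values were 1001 to 1177 at 0 h and 183 to 412 later. For 6 peritubular myoid markers, all with a peak, they were 592 to 640 and then 86 to 309, and for 9 markers of macrophages and endothelium, of which 5 had a peak (Adgre1, Ptprc, Pecam1 and Cdh5 had none), 452 to 473 and then 38 to 94. Of 8 Leydig cell markers only Lhcgr had a start peak, at 74 to 77 and then at most 32. The 8 germ cell markers all had one and summed to 2671 to 3164 at 0 h, 1143 to 1444 at 18 h, 931 to 1366 at 48 h and 1634 to 2140 at 120 h. The part of these markers in the results on intragenic regions was not tested.

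Few intragenic regions were open throughout. A peak in all 8 libraries was found in 2395 of 27970 (8.56%), against 17.8% of all regions and 67.9% of gene starts with a CpG island. Flanks (9.94%) and intergenic regions (6.96%) had similar shares. At the other end, 9032 intragenic regions (32.3%, against 26.4% of all regions) had a peak in 1 library only, as had 29.9% of flanks and 31.1% of intergenic regions. Of the 16778 intragenic regions with a peak in both 0 h libraries, 6244 had none in any later library. These were 22.3% of the intragenic regions, close to the 21.4% of all regions that were open at 0 h only. In the opposite direction, 419 intragenic regions had a peak in both 120 h libraries and in no other, which was 1.498% of them, against 0.954% of all regions. The share was 1.22% in flanks and 0.736% in intergenic regions. The 419 made up 50.4% of the 831 such regions. A further 72 intragenic regions (0.257%, against 0.160% of all regions) were called at 18, 48 and 120 h but not in both 0 h libraries.

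Loss of the peak went with its height at 0 h. Height is the summit value, the coverage by extended tags in the highest bin of a peak. The lowest called summits were 24 or 25, but peaks were called by a MACS2 p-value and not at a fixed coverage. The height in a library with no peak is therefore not known and need not lie under 25. Regions with no later peak had a median 0 h height of 54.0, and those with a peak in all 6 later libraries one of 199. The groups were therefore split by height before they were compared.

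Of the 0 h regions, 35.7% and 43.9% had a peak in the libraries at 18 h, 30.0% and 41.6% in those at 48 h, and 45.7% and 22.5% in those at 120 h. In the lowest of 10 height classes (median 39.0) these shares ranged from 2.44% to 9.65%. In the highest (median 272) they ranged from 72.7% to 98.5%. The share increased from class to class in each library, and 120 h replicate 2 ran lowest in the 7 upper classes.

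**Figure D2:**
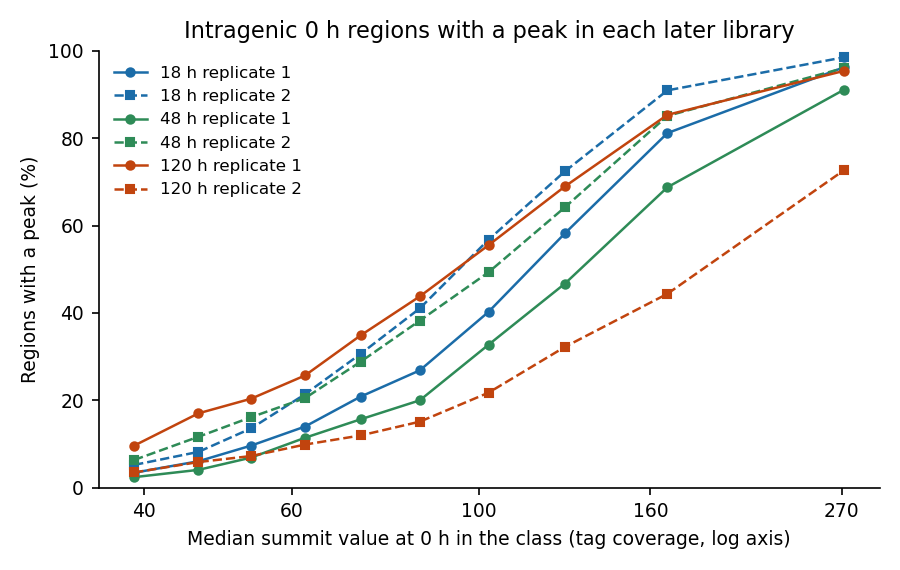
Share of intragenic 0 h regions with a peak in each later library (percent) against the median 0 h summit value of the class (tag coverage, log axis), for 10 classes of equal size. Lines are the 6 later libraries: all climb with height, from 2.44% to 9.65% in the lowest class to 72.7% to 98.5% in the highest.

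Intragenic regions kept their peak more often than intergenic ones and less often than flanks and starts. At equal height none of the 3 differences adjusted together, to intergenic regions, flanks and starts without a CpG island, passed the test. The share was higher than that of intergenic regions by 6.57 percentage points (higher in 6 of 6 libraries). The difference to gene flanks was -1.07 points and that to starts without a CpG island -13.1 points, below 0 in 6 of 6 libraries each. Each gave an exact sign-flip permutation p of 0.03125 (two-sided, n = 6, the same after adjustment over the 3), the smallest possible, and the 6 libraries share the same 0 h regions. Within classes of 0 h height the differences were 1.37 points against intergenic regions (4 of 6 libraries, adjusted exact p = 0.125), 1.99 points against flanks (5 of 6, 0.0938) and -3.09 points against starts without an island (1 of 6 above 0, 0.0938). None of the 3 then passed the test, and that against flanks changed sign. The difference to starts with a CpG island, taken outside this family of 3, was -49.2 points and, within classes of height, -15.2 points (0 of 6 above 0 in each, unadjusted exact p = 0.03125).

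By distance from the start, these shares changed little up to 100000 bp and were lower beyond it, a difference that was not tested. Regions 1000 to 5000 bp from a start kept a peak in 25.2% to 49.3% of cases, depending on the later library, and those over 100000 bp away in 18.9% to 41.97%. Their median 0 h heights were 99.0 and 70.6. Within a gene the outcome was mixed. Over all intragenic 0 h regions, 31.1% were called in both libraries at 18 h. With that share a mix would be frequent, and genes with all regions called rare, even without a link between regions of 1 gene. Neither the genes nor the pairs below were set against unlinked regions. Of 741 genes with at least 5 regions open at 0 h, 657 had some but not all of them called in both libraries at 18 h, 84 had none and 0 had all. Neighbouring 0 h regions of 1 gene had the same call at 18 h in 65.4% of 1011 pairs with gaps of up to 2000 bp, and in 56.6% of 2166 pairs with gaps of 2000 to 10000 bp. With gaps of 10000 to 50000 bp it was 57.6% of 2952 pairs and with wider gaps 60.9% of 719, so the share did not fall steadily with distance.

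Later peaks in regions without a 0 h peak, called new here, lay inside genes more often than the other peaks of the same library. Among later peaks in regions without any 0 h peak, 48.4% ± 4.30 (SD, n = 6 libraries) were intragenic, and among those in regions with one, 22.1% ± 2.23. The difference of 26.3 percentage points was above 0 in 6 of 6 libraries (exact sign-flip permutation p = 0.03125, two-sided, the smallest possible). It was 22.0 points with summit values of at least 50. Flanks were also more frequent among the new peaks (16.4% against 9.77%), as were intergenic regions (26.5% against 18.4%), whereas gene starts with a CpG island made up 3.11% of the new peaks and 35.8% of the others. Of the 11706 gene starts with a CpG island, 10892 were called in both 0 h libraries. Few of them could be among the new peaks, so the other classes must make up more of these. The test therefore cannot tell whether new peaks favour genes. This comparison was added after the data were seen.

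Heights could be compared in the 2395 intragenic regions called in all 8 libraries. The other 25575 are not in this fit, so regions that close or first open after RA are described by their peaks alone. The fit was limma over all 15536 such regions with Benjamini-Hochberg adjustment. Before scaling it gave the same SE, 0.37, for every named region and every contrast. That SE and the p-values before scaling thus rest on a spread pooled over regions. They do not measure how far the replicates of a single region differ. Before scaling, 2041 of the 2395 (85.2%) were lower at 18 h than at 0 h, against 92.3% of all regions, and 20 were higher (0.835%, against 0.296%). At 48 h, 2082 were lower (background 93.3%) and 22 higher (background 0.328%). At 120 h, 1536 were lower (64.1%, against 44.8%) and 62 higher (2.59%, against 0.882%). The median log2 changes were -1.22, -1.42 and -1.11, against -1.23, -1.36 and -0.75 over all regions.

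The shift of the whole library is in these values. After each library was centred on its median over the 15536 regions, the intragenic medians were 0.04, -0.03 and -0.22 at 18, 48 and 120 h. At 18 h, 5 regions were lower and 76 higher (backgrounds 0.225% and 1.25%), and at 48 h 56 and 159 (1.51% and 3.26%). At 120 h 653 were lower and 335 higher (27.3% and 14.0% of the 2395, against 15.8% and 23% of all regions). Relative to the median region, lower calls at 120 h were more frequent and higher calls less frequent among intragenic regions than among all regions.

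Between 48 and 120 h, 10 intragenic regions were lower and 239 higher before scaling (backgrounds 0.18% and 23.7%), with a median of 0.26 against 0.56 over all regions. After centring 327 were lower and 97 higher (backgrounds 7.45% and 9.47%), with a median of -0.24. By class, the median change from 0 to 120 h before scaling was -0.53 at gene starts with a CpG island, -0.85 at CpG islands away from starts, -1.08 at starts without an island, -1.09 in flanks, -1.11 in intragenic and -1.20 in intergenic regions. Intragenic regions thus lay beside the other classes that lack a CpG island.

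**Figure D3:**
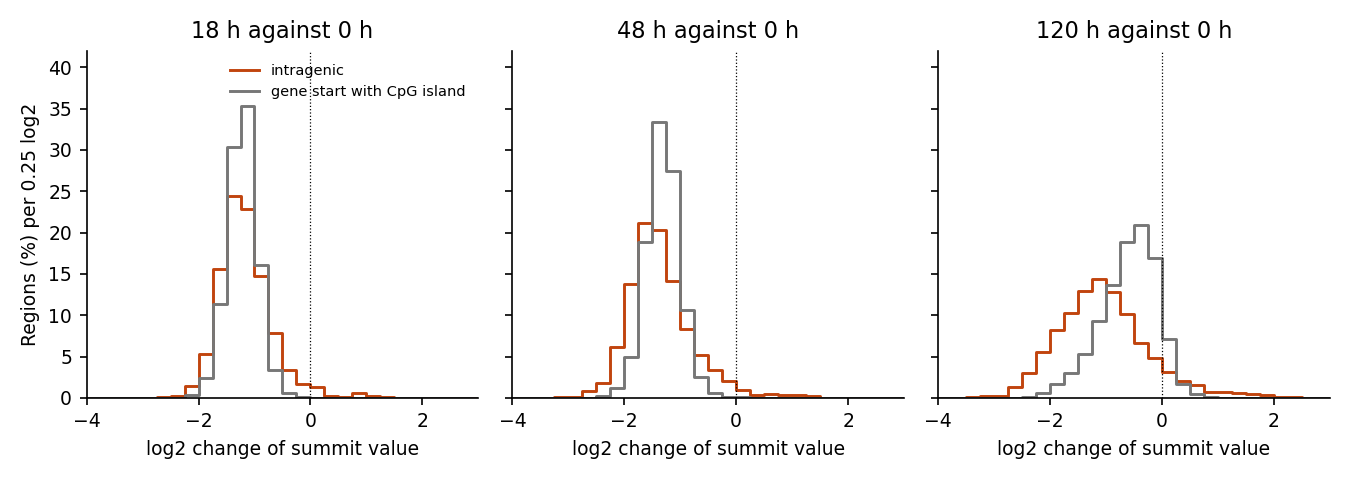
Percent of regions in each step of 0.25 of the log2 change in summit value against 0 h, before scaling, for the 2395 intragenic regions and the 7954 gene starts with a CpG island that have a peak in all 8 libraries. The outlines overlap at 18 and 48 h, and at 120 h the medians are -1.11 and -0.53.

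The highest intragenic region lay 1747 bp from the start of Peg3, a paternally expressed imprinted gene for a zinc finger protein, in its first intron (chr7:6727438-6729065). Its summit values were 1142 and 1449 (0 h), 454 and 745 (18 h), 409 and 429 (48 h), and 1338 and 994 (120 h). The 120 h values overlapped those at 0 h, while all 4 values in between were lower. The log2 change at 120 h was -0.16 (SE 0.37, adjusted p = 0.748 by limma), and 0.73 relative to the median region (adjusted p = 0.0155).

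The next in height were a region in Uggt2, whose product glucosylates misfolded glycoproteins in the endoplasmic reticulum, and one in Nxn, which encodes the redox protein nucleoredoxin. Uggt2 had 883 and 1165 (0 h) and 811 and 505 (120 h). Nxn had 881 and 1127 (0 h) and 577 and 141 (120 h). Of these, Nxn fell at 120 h (log2 change -1.80, adjusted p = 1.42e-05 by limma, and -0.91 after centring), and Uggt2 did not pass before scaling (-0.66, adjusted p = 0.131). Cd247, the gene of the T cell receptor zeta chain, had 574 and 1206 (0 h) and 535 and 178 (120 h) (-1.43, and -0.54 after centring, where it did not pass). Sh2d3c, for an SH2 domain adaptor, and Mamstr, for a coactivator of MEF2 and SRF, completed the 6 highest, with log2 changes of -0.78 (adjusted p = 0.0725) and -0.92 (adjusted p = 0.0312) at 120 h by limma. After centring Mamstr no longer passed (-0.034, adjusted p = 0.908 by limma).

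The regions that rose most at 120 h included introns of 4 genes of transcription regulators, Camta1, Mxi1, Deaf1 and Thra. In Camta1 (chr4:151445109-151446090, an intron 416168 bp from the start) the values were 107 and 93 (0 h), 99 and 96 (18 h), 82 and 137 (48 h), and 568 and 425 (120 h). Both 120 h values lay far above the other 6, which overlapped each other. The log2 change against 0 h was 2.30 (SE 0.37, adjusted p = 2.94e-08 by limma).

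Mxi1 encodes a partner of MAX that opposes MYC. Its region (chr19:53338789-53339299) had 71 and 41 (0 h), 38 and 49 (18 h), 59 and 49 (48 h), and 407 and 152 (120 h), a log2 change of 2.20. The 2 values at 120 h differed by more than the range of all earlier ones. In Deaf1, the gene of a DNA-binding regulator, values went from 63 and 61 (0 h) to 377 and 169 (120 h) (2.03). Thra, for thyroid hormone receptor alpha, had 117 and 114 (0 h), 186 and 198 (48 h), and 542 and 357 (120 h) (1.93), so its values at 48 h already lay above those at 0 h. Ttc34, for a tetratricopeptide repeat protein, and Ap1g1, for a subunit of a clathrin adaptor, rose by 1.97 and 1.92 on the log2 scale.

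The 6 regions that fell most at 120 h lay in Lphn2, Cndp1, Cdh13, Lhfp, Afp and Prkd2. In Lphn2, for the adhesion receptor latrophilin 2 (chr3:148850344-148851033), the repeat printed above had 380 and 648 (0 h), 132 and 198 (18 h), 86 and 151 (48 h), and 58 and 46 (120 h). No value of a later library reached those at 0 h, and the 120 h values were the lowest. The log2 change at 120 h was -3.26 (SE 0.37, adjusted p = 4.09e-15 by limma).

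Cndp1, the gene of a secreted carnosinase, had 472 and 888 (0 h) and 109 and 42 (120 h), also a change of -3.26. Cdh13 had 496 and 442 (0 h), 71 and 76 (48 h), and 69 and 38 (120 h) (-3.19), so that it was already low at 48 h. Lhfp fell by 3.19 on the log2 scale, Prkd2, for protein kinase D2, by 3.04, and Afp, for alpha-fetoprotein, by 3.07. Afp had 242 and 387 (0 h), 74 and 83 (18 h), and 38 and 35 (120 h). All 6 falls and all 6 rises passed the test after centring too, with changes of -2.37 to -2.15 and 2.81 to 3.19.

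**Figure D4:**
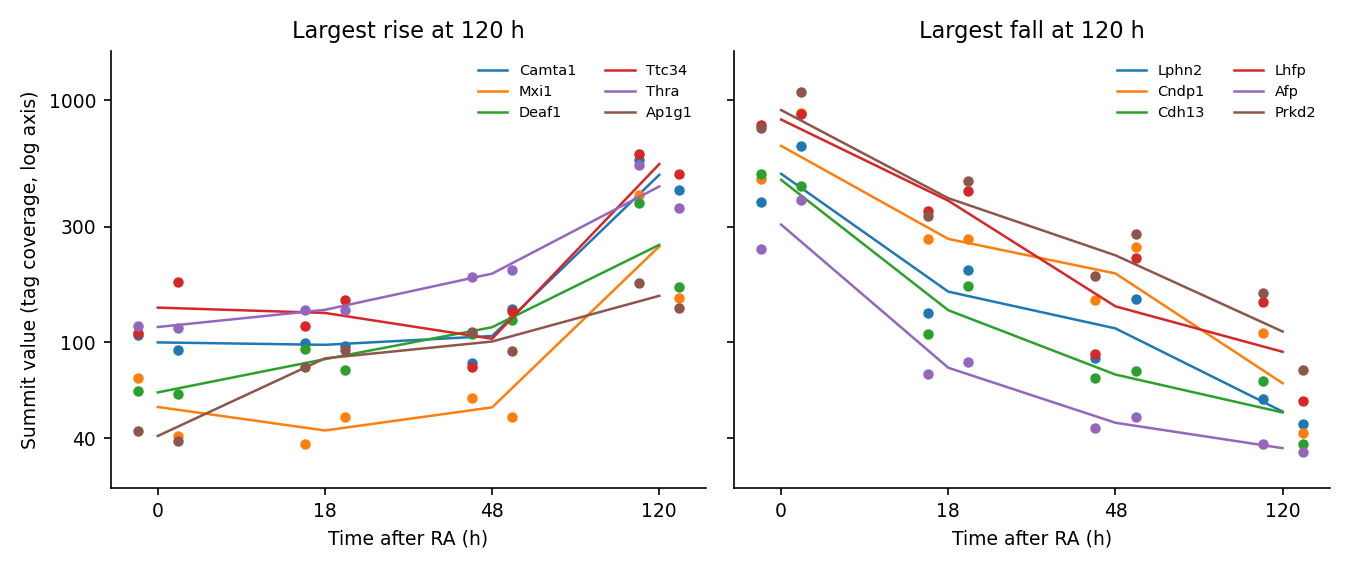
Summit value (tag coverage, log axis) by time after RA in h for the 6 intragenic regions with the largest rise (left) and the largest fall (right) at 120 h against 0 h. Points are single libraries and lines join the geometric means of 2 libraries: Camta1 stays between 82 and 137 until 48 h and reaches 568 and 425 (120 h), and Lphn2 drops from 380 and 648 to 58 and 46.

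Rises at 18 h were few and small beside the falls before scaling, whereas after centring more regions rose than fell (76 against 5) and the 4 largest rises were 2.34 to 2.68. The largest was in Epb4.1l3, for a membrane skeleton protein (chr17:69282043-69282423), with 134 and 72 (0 h), 283 and 246 (18 h), 250 and 302 (48 h), and 338 and 292 (120 h). All 6 later values lay above both at 0 h, with a log2 change of 1.43 at 18 h (adjusted p = 4.79e-04 by limma). Exoc6b, for a subunit of the exocyst, rose by 1.19, Myo5b, for the motor myosin Vb, by 1.17, and Arl1, for a Golgi GTPase, by 1.08 on the log2 scale. All 4 were also higher at 120 h than at 0 h, by 1.63 to 1.85 on the log2 scale.

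The largest falls at 18 h were in Piezo2, the gene of a mechanosensitive channel (-2.59), Nrxn3, for the synaptic protein neurexin 3 (-2.52), Dgki, for a diacylglycerol kinase (-2.42), and Rerg, for a RAS-like GTPase (-2.32). Piezo2 had 394 and 241 (0 h), 47 and 56 (18 h), and 194 and 112 (120 h). Dgki (chr6:37096908-37097697) had 230 and 175 (0 h), 36 and 39 (18 h), 45 and 36 (48 h), and 99 and 49 (120 h). In both the values at 120 h lay above those at 18 h without reaching 0 h. Relative to the median region the falls at 18 h were -1.33, -1.26, -1.16 and -1.07, and that of Rerg no longer passed (adjusted p = 0.175 by limma).

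Among regions open at 0 h only, the highest lay in the first intron of Zfpm1, the gene of the GATA cofactor FOG1 (chr8:122294125-122294662), with 294 and 277 (0 h) and no peak in the 6 later libraries. It is followed by 9330179D12Rik (239 and 254), Ldlrad4, for a protein that limits TGF-beta signalling (299 and 229), Fbln1, for an extracellular matrix protein (226 and 236), Rfx8, of the RFX factor family (202 and 200), and Sdf2 (219 and 200). They stand far above the bulk of the 6244 such regions, whose median was 54 in both 0 h libraries.

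Among the 419 regions open at 120 h only, the highest lay in the first intron of Abcf1, which acts in translation (chr17:35967434-35967876), with 387 and 307 (120 h) and no other peak. Pacsin1 had 259 and 205, Dstn, for the actin-severing protein destrin, 348 and 204, Dll4, for a Notch ligand, 347 and 195, and Sipa1, for a Rap GTPase activator, 408 and 187. The medians over the 419 were 84 in replicate 1 and 52 in replicate 2, so the first library at 120 h gave the higher values. The Dstn region lay 1053 bp from the gene start, just outside the limit of 1000 bp that defines the class, and the Peg3 and Abcf1 regions lay 1747 and 2134 bp away.

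Genes of spermatogonia were followed with lists chosen when earlier results of these data were known. Genes of undifferentiated spermatogonia and stem cells held 84 intragenic regions in 18 of 35 genes. Of the 61 open in both 0 h libraries, 18 (29.5%) had no later peak, against 37.2% of all intragenic regions open at 0 h, and 41.0% were called at 18 h, against 31.1%. None opened at 120 h only, where the share over all intragenic regions was 1.498%. The 9 with a peak in all 8 libraries were all lower at 18 h (85.2% of all intragenic regions tested), and 7 were lower and 0 higher at 120 h (median -1.39, against -1.11 over all intragenic regions). At 120 h 64.1% of all intragenic regions tested were lower and 2.59% higher. After centring 4 of the 9 were lower and 1 higher at 120 h, against 27.3% and 14.0%.

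Gfra1, the receptor for GDNF on stem cells, held 19 regions, of which 17 and 14 had a peak at 0 h, 7 and 6 (18 h), 3 and 6 (48 h), and 6 and 1 (120 h). Its highest (chr19:58418167-58418648) had 247 and 198 (0 h), 54 and 66 (18 h), 40 and 69 (48 h), and 80 and no peak at 120 h. Glis3, for a zinc finger factor needed for undifferentiated spermatogonia, held 14, and its highest went from 439 and 385 (0 h) to 102 and 169 (18 h) and to 125 and no peak at 120 h. In both genes the values at 0 h stood apart from all later ones.

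Cdh1, for E-cadherin, held 7, with 223 and 212 (0 h) and 144 and 83 (120 h) in the highest (log2 change -0.99, adjusted p = 0.0201 by limma, and -0.10 after centring). Etv5, a target of GDNF signalling, held 5, and its highest had 231 and 237 (0 h), no peak at 18 or 48 h, and 116 in 1 library at 120 h.

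Genes of differentiating spermatogonia held 17 regions in 7 of 17 genes. Of the 9 open at 0 h, 5 (55.6%) had no later peak, against 37.2% of all intragenic ones. Kit, the receptor that marks differentiating cells, held 3. The highest lay in its first intron (chr5:75601589-75602038) with 68 and 36 (0 h) and no later peak. Dmrt1 held 2, of which the higher had a peak of 39 in 1 library at 0 h. Ccnd2, for cyclin D2, held 1, with 299 and 164 (0 h), 80 and 91 (18 h), 59 and 61 (48 h) and no peak at 120 h. Dnmt3a, a DNA methyltransferase, held 8, and its highest fell from 184 and 317 (0 h) to 97 and 60 (120 h) (log2 change -1.66, adjusted p = 6.46e-05 by limma, and -0.77 after centring). None of the 17 was open at 120 h only, as few would be at the share of 1.498% over all intragenic regions.

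Genes of RA receptors, RA metabolism and their cofactors held 45 regions in 18 of 29 genes. Of 26 open at 0 h, 9 (34.6%) had no later peak, against 37.2% of all intragenic ones. Rxrg, a retinoid X receptor gene, held 5, with peaks in 5 and 4 of them at 0 h, 1 and 0 (18 h) and none at 48 or 120 h. The 7 in Ncor1, a corepressor gene, had peaks in 4 and 3 (0 h) and in 5 and 2 (120 h). Ncoa1, a coactivator, held 6, with peaks in 5 and 3 (0 h) and in 1 and 0 (120 h).

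Meiotic prophase genes held 25 regions in 10 of 32 genes. Of 13 open at 0 h, 5 (38.5%) had no later peak, against 37.2% of all intragenic ones. Tex14, a gene for the bridges between germ cells, had the highest, with 648 and 320 (0 h), 120 and 148 (18 h), 143 and 134 (48 h), and 235 and 196 (120 h) (log2 change -1.09, adjusted p = 0.0105 by limma, and -0.19 after centring). Sycp1, of the synaptonemal complex, held 5, with peaks in 4 and 3 (0 h) and in none at 120 h. Germ line and piRNA genes held 33 regions in 13 of 25 genes, but only 8 were open in both 0 h libraries. In Piwil2, the PIWI gene whose promoter drives the transgene, 7 regions had peaks in 1 and 1 (0 h), 0 and 0 (18 h), 1 and 3 (48 h), and 3 and 1 (120 h).

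DNA methylation and chromatin enzymes held 86 regions in 28 of 41 genes. Of the 46 open at 0 h, 11 (23.9%) had no later peak, against 37.2% of all intragenic ones. At 120 h, 6 of 10 tested were lower and 1 higher before scaling (64.1% and 2.59% of all intragenic regions tested), and 2 lower and 1 higher after it (27.3% and 14.0%). Chd7, a chromatin remodeller, held 8, and its highest had 87 and 171 (0 h) and 74 and 41 (120 h) (log2 change -1.15, and -0.26 after centring, where it did not pass). Kdm2b, a histone demethylase that binds CpG islands, held 7, with 466 and 351 (0 h) and 110 and no peak at 120 h in the highest. The p300 relative Crebbp held 7, with peaks in 3 and 7 (0 h) and in 0 and 1 (120 h).

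Signalling genes of the Hedgehog, Wnt, TGF-beta and FGF pathways held the most, 133 regions in 32 of 45 genes. Of the 90 open at 0 h, 24 (26.7%) had no later peak, against 37.2% of all intragenic ones. Tcf7l2, a transcription factor of the Wnt pathway, held 18, with peaks in 13 and 15 (0 h), 5 and 6 (18 h), 5 and 5 (48 h), and 9 and 7 (120 h). Its highest had 518 and 661 (0 h), 136 and 242 (48 h), and 356 and 145 (120 h) (log2 change -1.36, and -0.47 after centring, where it did not pass). Tgfbr3, a TGF-beta coreceptor, held 17, and its highest went from 553 and 552 (0 h) to 221 and 92 (120 h) (-1.95, adjusted p = 2.53e-06 by limma, and -1.06 after centring). Across the 12 tested, 9 were lower and 0 higher at 120 h before scaling, and 5 and 0 after it, beside the same shares of all intragenic regions.

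The sequence of the windows was searched for 17 motifs on both strands: AP-1 (TGANTCA), ETS (CCGGAAG), the GATA letters AGATAAG, octamer (ATGNAAAT), SOX (AACAATG), FOX (TGTTTAC), DMRT (ACANTGT), the nuclear receptor element (AGGTCA), NR5A (AAGGTCA), TEAD (GGAATGT), SP/KLF (GGGCGG), the CCAAT box (ATTGG), the E-box (CACGTG), STAT (TTCNNNGAA), and CTCF, RFX and the DR5 retinoid element by name. NR5A letters contain the nuclear receptor element, and SOX and DMRT letters can overlap. Of 2785 intragenic regions with SOX letters, 54.2% had every SOX match inside DMRT letters. A match describes letters and is not a bound site.

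The DMRT letters stood in 24.1% of intragenic windows, against 17.6% of all regions, 20.4% of intergenic regions, 19.6% of flanks and 2.53% of gene starts with a CpG island. SOX letters stood in 9.96% (all regions 7.34%), AP-1 in 8.61% (7.92%), the nuclear receptor element in 17.4% (15.7%), CTCF in 3.06% (3.002%), RFX in 1.21% (0.880%) and DR5 in 0.154% (0.141%). AP-1 and CTCF were more frequent in flanks (8.86% and 5.32%) and intergenic regions (9.75% and 3.35%) than inside genes. The nuclear receptor element (18.0%) and DR5 (0.244%) were more frequent in flanks. SOX stood in 7.64% of flanks and 8.74% of intergenic regions, and RFX in 0.828% and 1.02%. SP/KLF and ETS letters, both frequent at gene starts with a CpG island, were rarer inside genes, with SP/KLF in 12.2% against 23.5% and ETS in 3.46% against 5.84%. Introns held DMRT letters in 25.9% of windows and coding exons in 9.01%.

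The matches lay near the summits. There were 37.6 and 39.4 matches per 1000 regions in the bins from -10 to 10 bp and from 10 to 30 bp of the summit and 8.29 and 8.69 in the outermost bins of the window. The summits lie on a grid of 32 nt bins of coverage, so their place is known only to that step.

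Windows that were open in more libraries held the DMRT letters more often. The share was 20.1% with a peak in 1 library and 38.5% with a peak in all 8. It was 17.4% in the regions open at 0 h only and 41.8% in those open at 120 h only. The steps were not the same for every form of the letters. With A or T in the middle the share went from 10.8% in 1 library to 28.4% in 8, and with C or G from 10.9% to 14.6%. In the regions open at 120 h only, however, 21.2% had A or T and 23.6% C or G. In intergenic regions the share was 36.0% with all 8 and 46.2% in those open at 120 h only, and in flanks 30.0% and 33.6%, with the same order as inside genes.

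**Figure D5:**
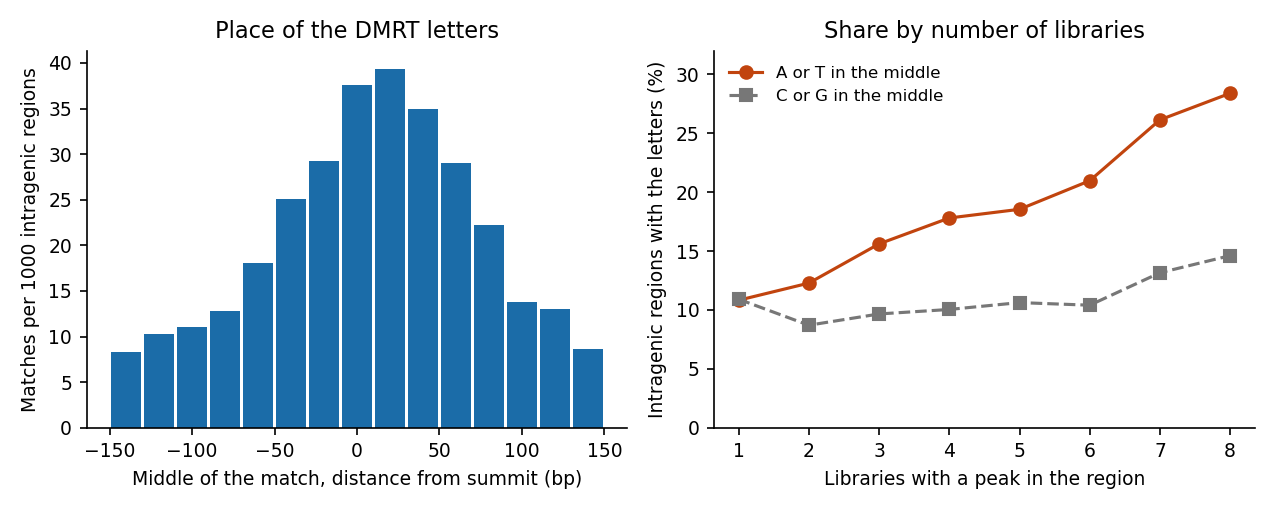
Left, matches of the DMRT letters per 1000 intragenic regions in 20 bp bins by distance of the middle of the match from the summit in bp; right, percent of intragenic regions with the letters by the number of libraries with a peak, split by the base in the middle. Matches peak near the summit at 39.4 per 1000, and the share with A or T in the middle goes from 10.8% to 28.4% while that with C or G ends at 14.6%.

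By library, the share of intragenic peaks with DMRT letters was 24.3% and 23.2% (0 h), 32.8% and 29.2% (18 h), 34.4% and 32.2% (48 h), and 35.3% and 34.7% (120 h). All 6 later libraries lay above both at 0 h, by 9.37 points on average (exact permutation p = 0.0714, two-sided, the smallest possible, adjusted p = 0.173 over 17 motifs, n = 2 and 6). With the 5184 highest intragenic peaks of each library, a setting added after the data were seen, the shares were 31.4% at 0 h and 35.7% later. There 18 h replicate 2, at 31.7%, lay below 0 h replicate 1, at 32.9%, and the groups overlapped. SOX (10.6% against 12.5%) and RFX letters (1.29% against 1.75%) were also more frequent later, and CTCF (3.51% against 2.29%), FOX (6.07% against 5.01%), STAT (7.84% against 6.90%) and octamer letters (4.43% against 3.79%) less, each with the same p. With the 5184 highest intragenic peaks the groups overlapped for SOX (13.3% against 13.6%), RFX (1.83% against 1.99%), STAT (7.57% against 7.09%) and octamer letters (4.07% against 3.75%). They did not overlap for CTCF (2.88% against 2.29%) and FOX (6.48% against 5.13%).

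Intragenic 0 h regions with DMRT letters kept their peak in 48.6% of cases on average over the 6 later libraries, and those without in 32.6%. The difference of 16.0 points was above 0 in 6 of 6 libraries (exact sign-flip permutation p = 0.03125, two-sided, adjusted p = 0.0590 over 17 motifs). Height moved with the letters, which stood in 17.0% of windows in the lowest class of 0 h height and in 34.4% in the highest. Within the classes the difference was 8.49 points, from 3.64 to 14.5 in single libraries (6 of 6, adjusted exact p = 0.0759). In the same form, RFX letters gave 5.60 points (6 of 6) and SOX letters 3.69 (6 of 6), while FOX letters gave -5.72 (0 of 6) and CTCF -3.99 (2 of 6). After adjustment none of the 17 motifs passed 0.05.

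The heights of the 922 regions with DMRT letters and a peak in all 8 libraries had medians of -1.13, -1.35 and -0.99 at 18, 48 and 120 h before scaling, beside -1.22, -1.42 and -1.11 over all 2395. Among the 6 largest rises at 120 h, Mxi1, Deaf1 and Thra held the letters, and among the 6 largest falls Cndp1 did. Over all 2395 regions the share was 38.5%. Abcf1, Dstn and Sipa1 held the letters among the 6 highest regions open at 120 h only, and Fbln1 among the 6 open at 0 h only. Over all regions of these 2 kinds the shares were 41.8% and 17.4%. Groups of 6 are too small to be told apart from such shares. Of the 84 regions in genes of undifferentiated spermatogonia, 35.7% held the letters, against 24.1% of all intragenic regions. Both the Gfra1 and the Glis3 region described above did. In the other lists the share ran from 5.88% (17 regions in genes of differentiating spermatogonia) to 27.9% (86 regions in DNA methylation and chromatin enzymes). These shares were not tested.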

How the data were processed

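ATAC-seq was performed on 8 libraries, 2 per timepoint. Reads were aligned to mm10 by the authors with BWA mem (0.7.12, per the submitters' processing notes), duplicates and mitochondrial reads were removed, and libraries were reduced to the same number of tags, which were extended at the 3′ end. Peaks were called in each library with MACS2 2.1.0 without a control, and blacklisted ones were dropped. The authors deposited, for each peak, the signal (coverage by extended tags in bins of 32 nt) at the summit and as a mean, with its genes and CpG islands. Read counts within regions were not used here, and the depth behind a peak is known only as its signal and no counting interval is given. Lowest summit values were 24 or 25 in each library.

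All 328733 peaks were merged as stated in the report. A region's height in a library was its largest summit value there, as log2 with no pseudocount, since a library without a peak has no height. They were fitted with limma 3.58.1 in R 4.3.3 (4 groups, all 15536 regions with a peak in all 8 libraries, Benjamini-Hochberg adjustment, threshold 0.05), with and without centring on the median of the library. Other steps used Python 3.11.15, numpy 2.4.6, pandas 2.3.3, scipy 1.17.1 and matplotlib 3.10.9. Exact permutation tests compared 0 h with later libraries, and exact sign-flip tests compared 2 shares within the 6 later libraries. The steps were tested on simulated data. The labels do not say more about the replicates than that they are separate samples, and the methods give 1 mouse each.

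The 150 bp to either side of a summit were read from GRCm38 and annotated with GENCODE vM21 basic. Named are the 6 highest regions, the 6 largest rises and falls at 120 h and the 4 at 18 h past the threshold, the 6 highest open at 0 h or at 120 h only, the 5 genes with the most and the densest regions, and in each gene list the highest region of up to 4 genes with the most regions. One region named by this rule is not reported here. The members and all lists were chosen with earlier results of these data known. Alternatives were a replicate block, centring, mean in place of summit signal, quantile normalization, equal numbers of peaks, summit values of at least 50, a start limit of 3000 bp, windows of 100 bp to either side, classes of 0 h height, and each library left out.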

Additional observations from a re-analysis of the deposited data

How the results depend on the processing

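The ratio of intragenic peaks (2.76) and the difference in their share (5.60 points) had an exact permutation p of 0.0357 when absolute differences were ranked. With each library left out they ran from 2.60 to 3.03 and from 5.06 to 6.37. The difference to flanks in regions that kept a peak was 1.99 within height classes, 0.66 with equal numbers of the highest peaks, -0.54 with summit values of at least 50 and -0.71 with a start limit of 3000 bp, and passed in none of these. That to intergenic regions was 1.37 within height classes and 2.99 with equal numbers, and that to starts without a CpG island -3.09 within classes and -8.60 with equal numbers. With each library left out they ran from -1.30 to -0.75, from 5.74 to 6.86 and from -14.3 to -12.5, the added comparison of new peaks from 23.1 to 27.7, and that of DMRT letters in kept regions from 14.8 to 17.0. With 1 later library left out, 5 pairs cannot give less than 0.0625. The difference in the share of peaks with DMRT letters, as 0 h minus later, ran from -10.1 to -8.84.

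Counts of heights depended on scaling. Lower and higher calls after centring were 5 and 76 (18 h), 56 and 159 (48 h) and 653 and 335 (120 h) against 0 h, and 327 and 97 for 120 h against 48 h. With quantile normalization they were 4 and 37, 80 and 110, 402 and 265, and 26 higher. Median changes at 18 h turned to 0.0394 with centring and 5.71e-05 with quantile normalization, and at 120 h against 48 h to -0.240 and -0.0893. Under centring, Peg3 turned to 0.73, Uggt2 to 0.23 and Sh2d3c to 0.11 at 120 h. Of 25 named regions tested at 120 h, 15 kept direction and call under centring and 7 lost the call, and 24 kept both with the mean signal of the peak, the exception being Chd7. The cause of these changes was not tested beyond the removal of the library's shift.

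With each library left out, where the lone library of a timepoint is assumed to vary like the others, calls at 18 h ran from 1351 to 2143 lower and from 4 to 22 higher, at 48 h from 1575 to 2146 and from 11 to 27, at 120 h from 827 to 1932 and from 32 to 114, and at 120 h against 48 h from 0 to 55 and from 14 to 949. After centring, a setting added after the data were seen, they ran from 0 to 7 and 20 to 110, from 5 to 68 and 57 to 181, and from 365 to 646 and 222 to 330. Libraries that moved a count by over 1.5 times were 0 h replicate 2 (without it, 1016 lower and 32 higher at 120 h), 18 h replicate 1 (1351 lower at 18 h, and 0 and 20 after centring), 18 h replicate 2 (9 higher at 18 h), 48 h replicate 1 (1 and 14 for 120 h against 48 h), 48 h replicate 2 (0 and 50), 120 h replicate 1 (55 and 36, and 41 higher at 120 h against 0 h), 120 h replicate 2 (827 lower and 114 higher at 120 h) and, after centring only, 0 h replicate 1 (21 lower at 48 h).

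The replicate numbers did not pair the libraries, since deviations of libraries with the same number correlated from -0.224 to 0.248 between timepoints. With a replicate block the calls were 1987 and 20, 2052 and 21, 1456 and 59, and 9 and 184, and with centring and the block 6 and 98, 70 and 188, 686 and 364, and 358 and 106, with medians of 0.0394 at 18 h and -0.240 at 120 h against 48 h. Depth behind a region is known only as signal, so weak regions may be missed in libraries with lower peaks.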

Other observations

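Some intragenic windows were tandem repeats, a feature that no comparison above used. A window was counted when at least 70% of its bases equalled the base at 1 fixed distance of 5 to 60 bases, which held for 323 of 27970 (1.15%). The share was 0.32% in regions open at 0 h only, 2.25% in regions called in all 8 libraries (54 regions) and 2.63% in those open at 120 h only (11 regions). It was 0.358% in the lowest class of 0 h height and 2.74% in the highest, so these shares move with height too. The Lphn2 and Nxn regions, 1 of the largest falls and 1 of the highest summits, are examples. The rule was set after the data were seen, and how well reads map within such repeats was not tested.

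Of 24 measures over the 6 later libraries, including the number and share of intragenic peaks, shares with motifs and differences in kept peaks, but no heights, none had a single library far from the others by Dixon's test, although 120 h replicate 2 had the fewest intragenic peaks and 120 h replicate 1 the most.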
